A study of Rattus norvegicus with 6 samples.

Results

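Cholesterol and palmitate were given to the same kind of cell, and the comparison described here sets cholesterol directly against palmitate: for each gene, the log2 intensity on the array titled cholesterol minus the log2 intensity on the array titled fatty acid. Both are 1 array each, out of 6 arrays in the series. All 6 carry total RNA of stem cells isolated by plating from the skeletal muscle of male rats, with no genetic change or sorting in the labels. The cholesterol culture received 100 mg/dl cholesterol with cyclodextrin, a ring-shaped sugar that carries cholesterol in water. The only fatty acid in the labels is sodium palmitate, with no dose clearly tied to it, and the array titled fatty acid is called palmitate from here on. The 4 other arrays are 2 controls, titled high glucose control and low glucose control, and 2 cultures titled LZ serum and OZ serum, and the meaning of LZ and OZ is not explained. They entered the signal filter and were compared with each other for scale. Otherwise they gave the range and median that show which of the lipids had moved. The labels do not say which glucose level either lipid culture had, whether the palmitate or control cultures held cyclodextrin, how long the lipids were on, how many animals gave the cells, or whether the same cells served all wells. Carrier, dose, glucose and lipid therefore cannot be told apart. With 1 array per group no test was possible, no value has an error, and every difference describes these arrays and not the conditions.

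Cells sense the lipids by different routes. Sterol in the membrane of the endoplasmic reticulum (ER) holds back SREBP2, the transcription factor of the cholesterol synthesis enzymes, while oxidised sterols activate LXR, a nuclear receptor that turns on sterol export. Palmitate, a saturated fatty acid, is known to disturb the ER membrane and to set off the unfolded protein response, in which the sensors IRE1, PERK and ATF6 raise folding enzymes and the degradation of misfolded proteins. In skeletal muscle both lipids accumulate in obesity and diabetes, and muscle-derived progenitor cells can take up fibroblast, fat, smooth muscle or muscle fates.

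The 36685 probe sets had median intensities between 104.6 and 109.2 on the 6 arrays, so the arrays were on 1 scale. Of 18166 named genes, 11540 passed a signal filter, a mean log2 over all arrays that reached 6.74, the median of all values, and these are called measured. The cells carried the markers of mesenchymal progenitors and fibroblasts: 12 of 14 annotated markers were measured, with a median log2 level of 11.34 over the list. Of 9 myogenic markers 4 were measured, and Myod1 and Myf5, the factors that commit cells to muscle, did not pass the filter. Endothelial markers were measured in 1 of 8 cases, macrophage and leukocyte markers in 5 of 14, keratinocyte markers in 3 of 11 and adipocyte markers in 3 of 7. No marker was listed at 0, as the lowest intensity on any array was 3.63.

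Cholesterol and palmitate differed at least 2-fold in 325 of 11540 measured genes (2.82%). In 221 genes (1.92%) the cholesterol array was higher, and in 104 genes (0.901%) it was lower. At 4-fold or more, 16 genes were higher and 15 lower. The median difference over all measured genes was 0.01, and 51.9% of them were higher with cholesterol. The lists described further on therefore stand against a background centred near 0. Their 2-fold counts stand against the shares of 1.92% higher and 0.901% lower. For scale, the 6 pairs that can be formed among the 4 other arrays differed 2-fold in 3 to 41 genes. Palmitate differed from the 4 other arrays in 411 to 472 genes and cholesterol in 216 to 232. The direct comparison thus lay between the distances of either lipid from the rest, as the fifth largest of 15 pairs.

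At the 1.5-fold distance used here, palmitate alone had left the other arrays in most of these genes. A lipid array was counted as outside when it lay at least 1.5-fold above the highest or below the lowest of the 4 other arrays. Palmitate alone was outside in 185 of the 325 genes (56.9%), of which 133 were higher and 52 lower with cholesterol. Cholesterol alone was outside in 51 genes (15.7%), of which 28 were higher and 23 lower. Both were outside on the same side in 22 genes and on opposite sides in 3, and in the remaining 64 (19.7%) neither was outside by that distance. Palmitate alone was not the majority at other distances, with 82 genes at any distance and 111 at 2-fold. In 241 of the 325 genes palmitate lay farther from the median of the 4 other arrays than cholesterol did. The commonest pattern among genes higher with cholesterol was a low palmitate value: palmitate lay below all 4 other arrays in 197 of 221, and cholesterol above all 4 in 103. Genes lower with cholesterol were more evenly made up, with palmitate above all 4 in 82 of 104 and cholesterol below all 4 in 61. Such positions were common over all 11540 measured genes. Palmitate lay below all 4 other arrays in 3835 and above them in 4179, and cholesterol below in 3046 and above in 3696. In 34 genes the lower of the lipid arrays fell below the median of all values, 11 of them lower and 23 higher with cholesterol, and their folds are the least certain. Igfbp5, Tenm3, Pln and Nog, described further on, are among them.

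**Figure D1:**
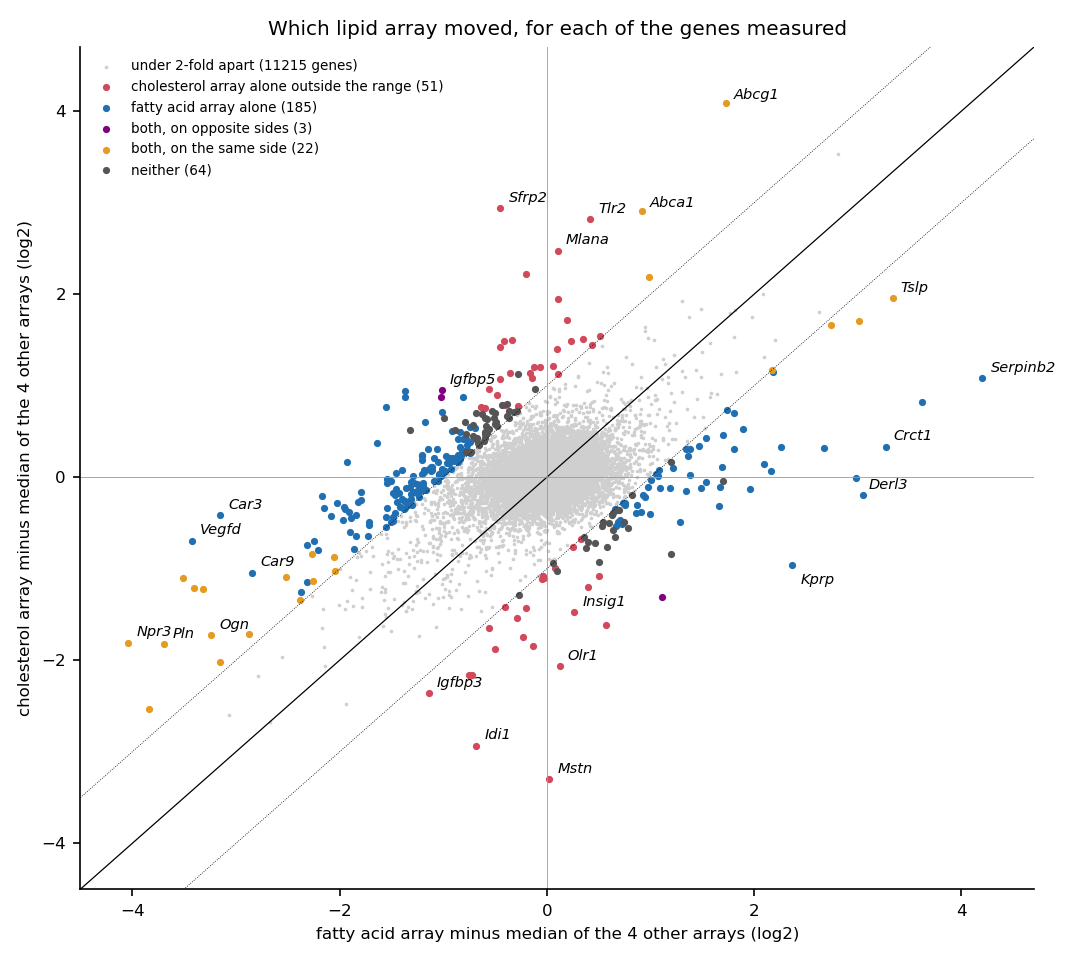
Each point is 1 of the 11540 measured genes, placed by the distance of the palmitate (titled fatty acid) array and of the cholesterol array from the median of the 4 other arrays, both in log2 units. The solid line marks equal distance and the dotted lines a 2-fold difference between the lipids. Coloured points are the 325 genes beyond those lines: the 185 genes in which palmitate alone left the range spread along the horizontal axis, and the 51 genes in which cholesterol alone left it spread along the vertical axis.

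The gene highest with cholesterol relative to palmitate was Sfrp2 (probe set 17739411), which encodes a secreted protein that binds Wnt ligands. Its log2 intensity was 11.05 with cholesterol and 7.66 with palmitate, 8.31 and 8.00 in the high and low glucose controls and 8.23 and 7.77 with LZ and OZ serum. Cholesterol stood alone above 5 arrays that lay within 1 log2 unit of each other, and the difference between the lipids was 3.39, or 10.5-fold. Next came a pair of genes of the opposite build. Car3, a carbonic anhydrase abundant in muscle and fat, was at 11.48 with cholesterol and 8.74 with palmitate, 12.30 and 11.84 in the high and low glucose controls and 11.91 and 11.88 with LZ and OZ serum. Vegfd, a growth factor for lymphatic vessels, was at 10.09 with cholesterol and 7.35 with palmitate, 10.82 and 10.74 in the high and low glucose controls and 10.94 and 10.62 with LZ and OZ serum. In both it was palmitate that stood alone, and cholesterol lay a little below the other arrays, so that differences of 2.74 and 2.73 arose from the low palmitate value.

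The same split ran through the rest of the 20 largest differences. Cholesterol alone was high in Cx3cl1, a membrane-bound chemokine (9.76 against 7.33 with palmitate and 6.94 to 8.13 elsewhere), Tlr2, a receptor for bacterial lipoproteins (9.97 against 7.57 and 6.79 to 7.50), Mlana, a melanosome protein (10.07 against 7.70 and 7.24 to 8.07), and Ces1a, a carboxylesterase (8.72 against 6.82 and 6.44 to 7.45). Just outside the 20, Mcoln3, a cation channel of endosomes and lysosomes, was built the same way, at 8.84 against 6.96 and 7.11 to 7.63. Palmitate alone was low in Cp, the copper-carrying ferroxidase ceruloplasmin (7.29 against 9.61 with cholesterol and 8.04 to 9.36 elsewhere), Epas1, a hypoxia-inducible transcription factor (7.71 against 9.80 and 9.42 to 9.79), Aox1, an aldehyde oxidase (7.43 against 9.44 and 8.74 to 9.11), and Dmpk, the kinase of the myotonic dystrophy locus (9.30 against 11.27 and 11.46 to 11.65). In Nrep, Npr3, Hapln1 and Tenm3 both lipids lay below the other arrays, palmitate farther. Npr3, the clearance receptor for natriuretic peptides, was at 9.54 with cholesterol and 7.31 with palmitate against 10.85 to 11.55 elsewhere, and Tenm3, an adhesion protein, at 8.48 with cholesterol and 6.38 with palmitate against 9.49 to 9.81. All 15 genes that both lipids left downward by at least 1.5-fold, and in which the lipids were 2-fold apart, had the lower value with palmitate.

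Among the 20 genes lowest with cholesterol relative to palmitate, with 2 microRNA genes passed over, the first 2 reached nearly the same difference by opposite routes. Kprp, a keratinocyte protein, was at 7.70 with cholesterol and 11.02 with palmitate, 8.70 and 7.22 in the high and low glucose controls and 8.99 and 8.61 with LZ and OZ serum, and only palmitate was outside the range of the other arrays. Mstn (probe set 17864319), which encodes myostatin, was at 6.61 with cholesterol and 9.93 with palmitate, 9.74 and 9.49 in the high and low glucose controls and 10.43 and 10.08 with LZ and OZ serum, and only cholesterol was outside. Both differences were -3.32 to 2 decimals. Palmitate alone was high in Derl3, Serpinb2, Lce1e, Crct1, Dhrs9, Sprr1a, Cxcl10, Slc16a6 and Pgf, among others. Of these, Lce1e and Pgf passed the signal filter only through their palmitate values. Dhrs9, a dehydrogenase of retinoids and steroids, was at 8.76 with cholesterol and 11.57 with palmitate against 7.68 to 8.99 elsewhere, with the low glucose control at the top of that range. Slc16a6, of the monocarboxylate transporter family, was at 7.42 with cholesterol and 9.39 with palmitate against 7.65 to 8.03. Cholesterol alone was low in Idi1, Insig1, Olr1 and Lce1m. Olr1 (probe set 17795409), a scavenger receptor for oxidised low-density lipoprotein, was at 7.81 with cholesterol and 10.00 with palmitate, 10.15 and 9.98 in the high and low glucose controls and 9.41 and 9.77 with LZ and OZ serum. Palmitate lay inside the range of the other arrays, and cholesterol lay -2.06 from their median.

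**Figure D2:**
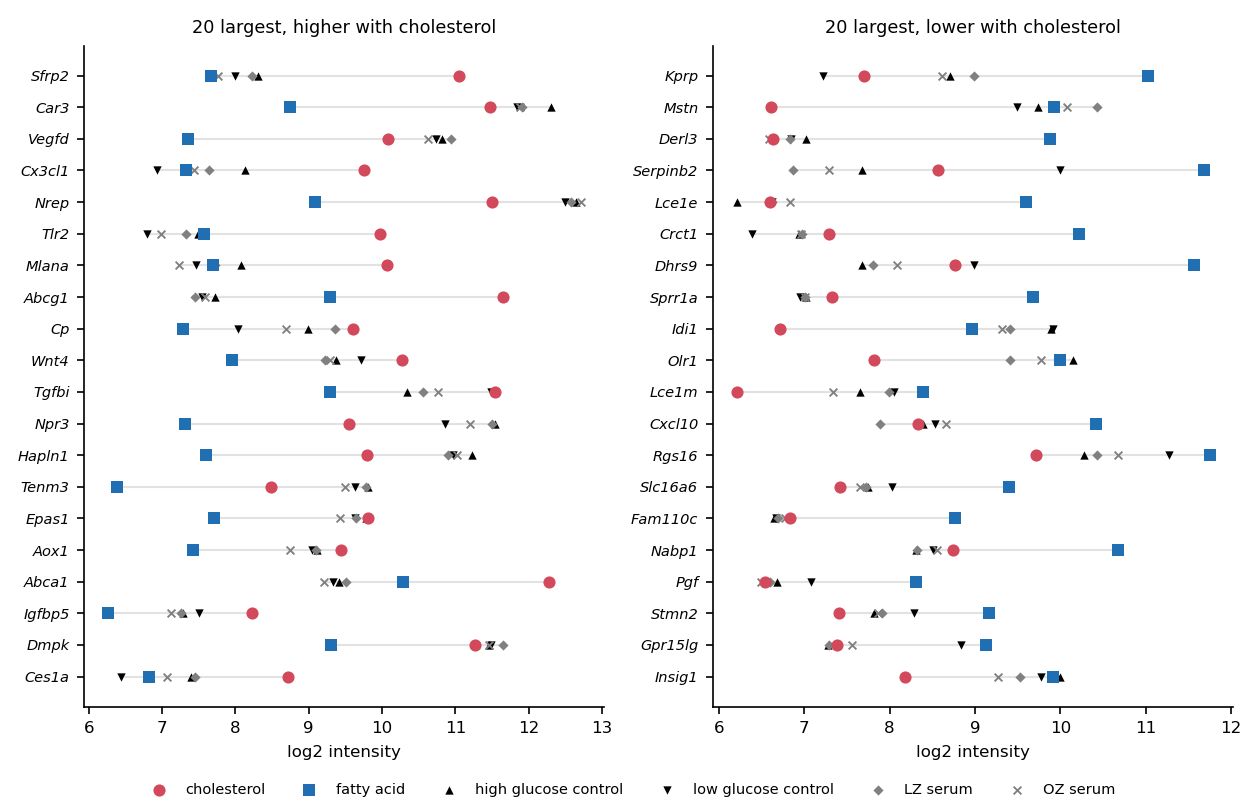
Log2 intensity on each of the 6 arrays for the 20 genes highest (left) and the 20 lowest (right) with cholesterol relative to palmitate (titled fatty acid), ordered by that difference; 1 symbol is 1 array, with no replicates. In Sfrp2, Tlr2 and Mlana the cholesterol symbol stands apart, whereas in Car3, Vegfd, Derl3 and Crct1 the palmitate symbol does.

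Among the lists with at least 3 measured genes, those of sterol synthesis had the cholesterol array farthest from the other arrays. The pathway runs from acetyl-CoA through mevalonate to squalene and then to cholesterol. In its first part all 6 measured enzymes were lower with cholesterol than with palmitate, 2 of them at 2-fold (of all genes, 0.901%), with a median difference of -0.79 beside 0.01 for all measured genes. Relative to the median of the 4 other arrays the median of these enzymes was -0.91 with cholesterol and -0.18 with palmitate, and all 6 cholesterol values lay below all 4 of them. Of all 11540 measured genes, 3046 had such a cholesterol value. Idi1, the isomerase that makes the reactive isoprene unit, was at 6.72 with cholesterol and 8.97 with palmitate, 9.90 and 9.92 in the high and low glucose controls and 9.41 and 9.32 with LZ and OZ serum. The cholesterol value lay just under the median of all values, so the fold of 4.75 is less certain. Fdft1, squalene synthase, was at 10.14 with cholesterol and 11.21 with palmitate against 11.15 to 11.52, and Fdps, farnesyl diphosphate synthase, at 9.88 with cholesterol and 10.77 with palmitate against 10.99 to 11.81. Palmitate was inside the range for Fdft1 and a little under it for Fdps, so the lipids stood -1.07 and -0.89 apart.

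From squalene onward the enzymes did not behave alike. Of 10 measured, 8 were lower with cholesterol, 3 at 2-fold (of all genes, 0.901%), with a median of -0.68. Msmo1, a sterol methyl oxidase, was at 10.46 with cholesterol and 12.17 with palmitate and 12.22 to 12.40 elsewhere. Cyp51, the lanosterol demethylase, was at 8.33 with cholesterol and 9.74 with palmitate, 10.70 and 10.72 in the high and low glucose controls and 10.30 and 10.10 with LZ and OZ serum. Sqle, squalene epoxidase, was at 8.98 with cholesterol and 10.21 with palmitate and 9.88 to 10.72 elsewhere. In these 3 genes cholesterol had left the range alone. Lss, which closes the sterol rings, and Dhcr7, the last reductase, were close between the lipids because palmitate was low as well. Lss was at 9.99 with cholesterol and 9.89 with palmitate and 9.93 to 10.66 elsewhere, and Dhcr7 at 7.65 with cholesterol and 7.79 with palmitate and 8.45 to 9.36. Palmitate lay below all 4 other arrays in 3 of the 6 early and 5 of the 10 late enzymes, against 6 and 8 for cholesterol. Over all 11540 measured genes, 3835 palmitate and 3046 cholesterol values lay there.

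The proteins that sense and move sterol differed less. Of 12 measured, 5 were higher and 7 lower with cholesterol, with a median of -0.13. Only Insig1, the ER anchor that retains the SREBP escort protein, reached 2-fold, at 8.18 with cholesterol and 9.91 with palmitate, 9.99 and 9.78 in the high and low glucose controls and 9.53 and 9.27 with LZ and OZ serum. Stard4, a cytosolic sterol carrier, was low with both lipids, at 7.15 with cholesterol and 7.69 with palmitate against 8.30 to 8.60. Scap and Npc1, the SREBP escort and the lysosomal cholesterol exporter, were 0.50 and 0.27 higher with cholesterol, and Soat1, which esterifies cholesterol, was at -0.49.

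Targets of LXR were the mirror image. Of 11 measured receptors and targets, 10 were higher with cholesterol and 5 reached 2-fold (of all genes, 1.92%), with a median of 0.97. Abcg1, a sterol exporter, was at 11.65 with cholesterol and 9.29 with palmitate, 7.73 and 7.54 in the high and low glucose controls and 7.44 and 7.58 with LZ and OZ serum. Abca1, the transporter that passes cholesterol to apolipoprotein A-I, was at 12.27 with cholesterol and 10.28 with palmitate, 9.41 and 9.33 in the high and low glucose controls and 9.51 and 9.21 with LZ and OZ serum. Both transporters were also above all other arrays with palmitate, so the direct differences of 2.36 and 1.99 are smaller than the distance of cholesterol from the other arrays. Palmitate stood 1.72 and 0.91 above the median of those arrays, and cholesterol 4.09 and 2.90. Srebf1, the lipogenic SREBP, was at 10.20 with cholesterol and 8.67 with palmitate and 8.01 to 8.66 elsewhere. Mylip, a ubiquitin ligase for the low-density lipoprotein receptor, was at 9.16 with cholesterol and 8.15 with palmitate and 7.63 to 7.84, a difference of 1.01 that was under 2-fold after quantile normalization (0.95). Apoe, the apolipoprotein, was at 8.49 with cholesterol and 7.52 with palmitate and 7.62 to 7.87. Pltp, a phospholipid transfer protein, differed by a different route: it was at 8.39 with cholesterol and 7.14 with palmitate and 8.30 to 8.54 elsewhere, so palmitate was low and cholesterol level with the rest. The receptors themselves, Nr1h2 and Nr1h3, were each 0.45 higher with cholesterol. Scd, a stearoyl-CoA desaturase that responds to both LXR and SREBP, was the exception at 7.70 with cholesterol and 8.71 with palmitate against 8.60 to 9.78, and its difference of -1.01 was -0.91 with an offset of 32 before log2.

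Genes of protein folding in the ER divided the lipids in the other way, with palmitate above the other arrays and cholesterol slightly under them. Of 20 chaperones and oxidoreductases measured, 16 were lower with cholesterol and 5 of them at 2-fold (of all genes, 0.901%), with a median difference of -0.43. The median relative to the other arrays was 0.29 with palmitate and -0.15 with cholesterol. Palmitate exceeded all 4 other arrays in 15 of the 20 genes, and cholesterol lay under all 4 in 15. Over all 11540 measured genes those counts were 4179 and 3046. Creld2, a folding factor secreted on ER stress, was at 9.03 with cholesterol and 10.64 with palmitate, 9.03 and 9.23 in the high and low glucose controls and 9.14 and 9.16 with LZ and OZ serum. Dnajb9, a co-chaperone that restrains IRE1, was at 10.39 with cholesterol and 11.89 with palmitate, 10.62 and 10.22 in the high and low glucose controls and 10.47 and 10.64 with LZ and OZ serum. In both only palmitate stood out. Dnajc3, a co-chaperone, was -1.17 and Pdia4, a disulfide isomerase, -1.06. Ero1b, an ER oxidase, was at -1.01, or -0.94 with an offset of 32 before log2. The abundant chaperones moved less. Hspa5 (BiP), the master chaperone, was at 12.60 with cholesterol and 13.37 with palmitate, 12.79 and 12.84 in the high and low glucose controls and 12.82 and 12.85 with LZ and OZ serum. Hsp90b1 (GRP94) was at 11.80 with cholesterol and 12.65 with palmitate and 11.96 to 12.17 elsewhere, Hyou1 at 10.76 with cholesterol and 11.67 with palmitate and 10.78 to 11.13, and Calr, calreticulin, at 12.77 with cholesterol and 13.11 with palmitate and 12.86 to 13.00. The members higher with cholesterol were Cnpy2 (0.49), Txndc5 (0.29), Ero1a (0.11) and P4hb (0.01), so not all folding enzymes followed.

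Some of the promoters of these genes carry a known element, printed here for the ER genes that hold it. The ER stress element, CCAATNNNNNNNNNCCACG, is bound by NF-Y at CCAAT and by ATF6 at CCACG. It was searched on both strands of the 250 bases before the start in RefSeq promoters of assembly GRCr8. It was found in 21 of 27457 promoters (0.0765%) and in 15 of the 9456 measured genes with a promoter (0.159%), and in 7 of 16 ER chaperones and oxidoreductases (43.8%). Of 87 genes with a promoter that were 2-fold lower with cholesterol it was found in 5 (5.75%), namely Derl3, Creld2, Dnajc3, Ero1b and Zfand2a, and of 162 that were 2-fold higher in 0. The matching stretches follow in gene direction with the element in capitals, and an element that reads CGTGG first lies on the opposite strand. Such a match is a description of the sequence and not of binding.
Derl3, chr20:12766571-12766649, minus strand: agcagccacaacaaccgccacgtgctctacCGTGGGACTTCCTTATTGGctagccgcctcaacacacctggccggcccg
Creld2, chr7:121789209-121789287, plus strand: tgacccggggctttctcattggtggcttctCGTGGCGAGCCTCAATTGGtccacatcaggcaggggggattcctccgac
Dnajc3, chr15:102432504-102432582, plus strand: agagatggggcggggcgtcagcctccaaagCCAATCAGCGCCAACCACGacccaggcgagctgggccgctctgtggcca
Ero1b, chr17:92941432-92941506, plus strand: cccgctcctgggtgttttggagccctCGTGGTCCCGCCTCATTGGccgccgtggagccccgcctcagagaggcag
Hspa5, chr3:38452943-38453015, plus strand: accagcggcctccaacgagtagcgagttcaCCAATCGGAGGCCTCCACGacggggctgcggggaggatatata
Hsp90b1, chr7:23012421-23012499, minus strand: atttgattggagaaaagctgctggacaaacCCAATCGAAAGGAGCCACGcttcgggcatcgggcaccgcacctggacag
Hsp90b1, chr7:23012317-23012395, minus strand: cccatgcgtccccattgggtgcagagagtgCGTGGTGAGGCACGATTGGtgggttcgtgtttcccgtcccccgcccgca
Calr, chr19:40213117-40213183, plus strand: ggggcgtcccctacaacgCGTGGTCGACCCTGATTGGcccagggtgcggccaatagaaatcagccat
Canx, chr10:35158039-35158107, minus strand: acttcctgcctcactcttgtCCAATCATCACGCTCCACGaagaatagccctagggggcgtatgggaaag
Hsp90b1 carries the element in each direction. All 8 of these genes were lower with cholesterol than with palmitate, from -0.24 in Canx to -3.25 in Derl3, and they come from lists in which most genes were lower. The 7 other measured genes with the element went both ways: Zfand2a (-1.10), Xbp1 (-0.32), Zfp57 (-0.28) and Hnrnpa3 (-0.07) were lower with cholesterol, and Ppm1l (0.06), Ankmy2 (0.16) and Pan2 (0.62) higher.

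Downstream of folding, genes of ER-associated degradation and translocation were lower with cholesterol in 12 of 14 cases, with a median of -0.23. Derl3, a channel component for misfolded proteins, was the only one at 2-fold. It was at 6.64 with cholesterol and 9.88 with palmitate, 7.02 and 6.84 in the high and low glucose controls and 6.83 and 6.58 with LZ and OZ serum, so 5 arrays lay near the median of all values and palmitate alone was 9.49-fold above cholesterol. Its relative Derl1 differed by -0.52, and Herpud1, which recruits the ubiquitin ligase, by -0.98. Among 11 transducers of the unfolded protein response 9 were lower with cholesterol. Ern1, which encodes IRE1, was at 9.49 with cholesterol and 10.53 with palmitate and 9.07 to 9.38 elsewhere. Ppp1r15a (GADD34), which reverses the translation block, was at 9.49 with cholesterol and 10.60 with palmitate and 9.34 to 9.50. Ddit3 (CHOP) was at 10.46 with cholesterol and 11.32 with palmitate and 10.10 to 10.62, while Xbp1 and Atf4 differed by -0.32 and -0.40. The 25 measured genes of amino acid supply and stress under ATF4 gave another picture: both lipids lay below the other arrays, by a median of -0.74 with cholesterol and -0.37 with palmitate. Slc7a1, a cationic amino acid transporter, was the only one 2-fold apart (-1.02, or -0.99 with an offset of 32 before log2). Slc7a3, of the same transporter family, was at 6.82 with cholesterol and 6.09 with palmitate against 8.14 to 8.40, lower with palmitate. Of 16 cytosolic tRNA synthetases 15 were lower with cholesterol, by a median of -0.17, and 0 reached 2-fold.

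Antioxidant genes under NRF2 were above the other arrays with both lipids and more so with palmitate. Of 16 measured, palmitate exceeded all 4 other arrays in 14 and cholesterol in 12 (of all 11540 measured genes, 4179 and 3696). The medians were 0.62 and 0.31 above those arrays, and the direct difference had a median of -0.39. Gclm, a subunit of the glutathione-making ligase, was the only one 2-fold apart, at 9.26 with cholesterol and 10.29 with palmitate and 9.40 to 9.57 elsewhere (just short of 2-fold when 32 was added before log2). Hmox1, heme oxygenase, was at 11.26 with cholesterol and 11.82 with palmitate, 10.16 and 10.59 in the high and low glucose controls and 10.11 and 9.76 with LZ and OZ serum, and Txnrd1, thioredoxin reductase, at 10.35 with cholesterol and 11.30 with palmitate against 9.85 to 10.34. Slc7a11, the cystine carrier, which is also in the ATF4 list, went another way: it was at 10.04 with cholesterol, below 10.83 to 11.16 elsewhere and 10.86 with palmitate. Cytosolic heat shock genes differed by a median of -0.19 and 0 of 11 reached 2-fold.

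**Figure D3:**
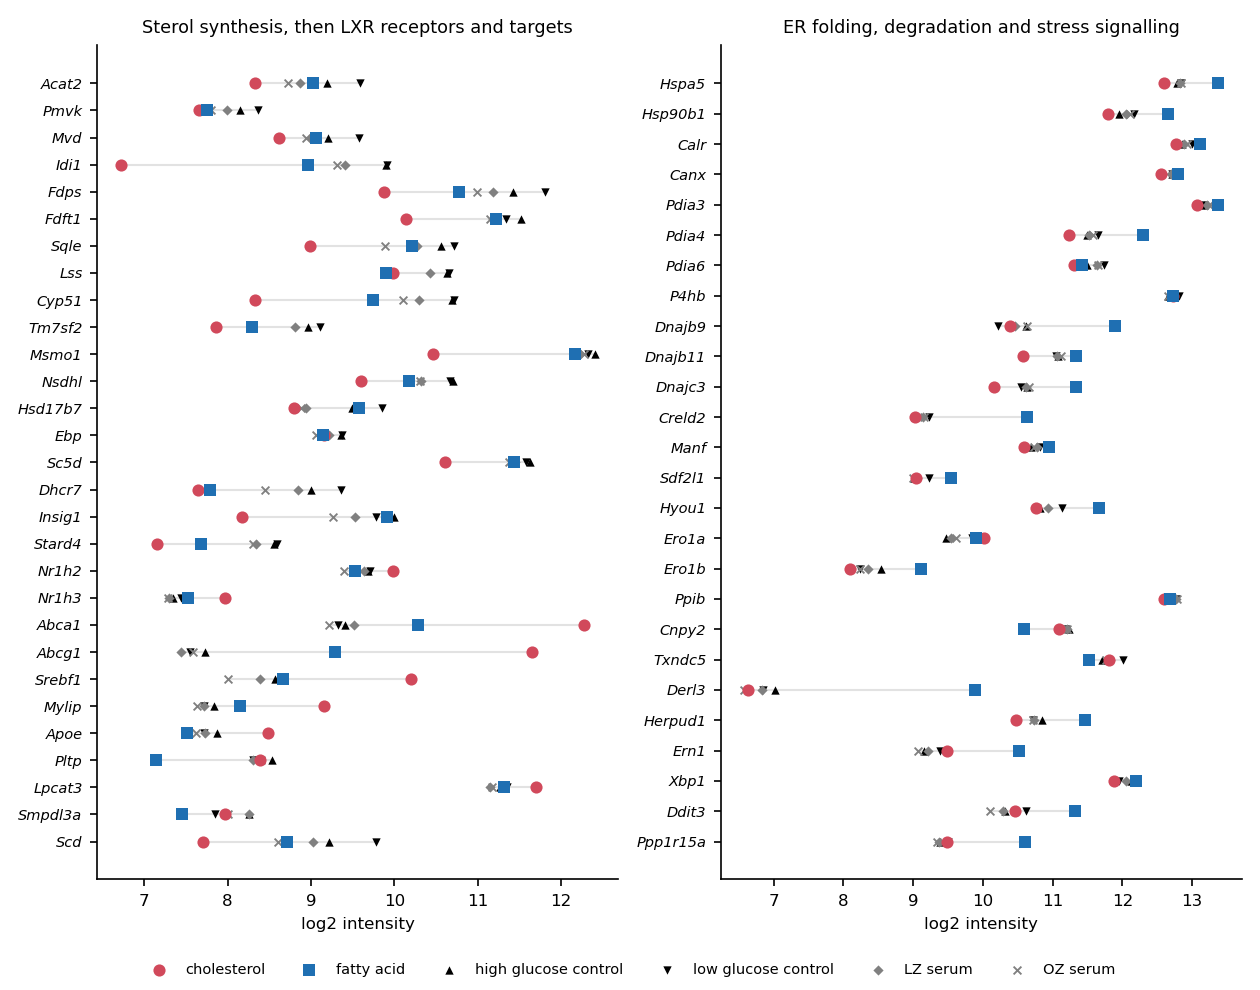
Log2 intensity on each of the 6 arrays for the 16 measured sterol synthesis enzymes, Insig1, Stard4 and the 11 LXR receptors and targets (left), and for 20 ER chaperones and oxidoreductases with 6 genes of degradation and stress signalling (right); 1 symbol is 1 array. On the left the cholesterol symbol is at an edge of most rows, low for Idi1 and Cyp51 and high for Abca1 and Abcg1. On the right the palmitate (titled fatty acid) symbol is at the upper edge for Hspa5, Dnajb9, Creld2 and Derl3.

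Myostatin stood out among secreted regulators of muscle. The TGF-beta family holds ligands that restrain muscle growth, such as myostatin and activin A, bone morphogenetic proteins (BMPs), and inhibitors that trap them. Of 25 measured genes 16 were higher and 9 lower with cholesterol, with a median of 0.29. At 2-fold, 3 were higher and 4 lower (of all genes, 1.92% and 0.901%). Mstn was 9.96-fold lower with cholesterol, and its cholesterol value of 6.61 was just under the median of all values. The 5 other arrays spread over less than 1 log2 unit, with palmitate among them. Inhba, which encodes the subunit of activin A, was at 11.45 with cholesterol and 12.49 with palmitate, 11.56 and 11.62 in the high and low glucose controls and 11.41 and 11.38 with LZ and OZ serum, so the other growth-restraining ligand was high with palmitate alone. Bmp2 was at 8.83 with cholesterol and 9.83 with palmitate and 7.90 to 8.32 elsewhere, above the other arrays with both lipids, and its difference of -1.01 was -0.96 with an offset of 32 before log2. Bmp3 was at 9.19 with cholesterol and 7.66 with palmitate and 9.48 to 9.84, low with palmitate, and Bmp6 at 8.56 with cholesterol and 7.58 with palmitate and 9.66 to 9.99, low with both. Nog, the BMP antagonist noggin, was at 6.73 with cholesterol and 8.31 with palmitate, 8.31 and 7.80 in the high and low glucose controls and 7.82 and 7.51 with LZ and OZ serum, low with cholesterol alone. Follistatin (Fst), which binds activin and myostatin, was -0.60 and gremlin (Grem1) -0.38.

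All 6 measured targets of BMP signalling on this list were higher with cholesterol than with palmitate, namely Id1 (0.75), Id2 (1.20), Id3 (1.07), Id4 (0.80), Smad6 (0.83) and Smad7 (0.55). Id3, an inhibitor of differentiation factors, was at 10.31 with cholesterol and 9.24 with palmitate and 9.93 to 10.67 elsewhere, and Id2 at 7.30 with cholesterol and 6.10 with palmitate and 6.79 to 7.02, the latter 0.91 apart with an offset of 32 before log2. Palmitate was the lowest of the 6 arrays in all of these genes.

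The insulin-like growth factor (IGF) axis was lower with palmitate in 10 of 14 measured genes, 4 at 2-fold (of all genes, 1.92%). Its binding proteins went in both directions. The median difference was 0.62, and palmitate lay -0.65 from the other arrays in the median against -0.07 for cholesterol. Igfbp5, the main IGF binding protein of muscle cells, was one of 3 genes in which the lipids left the range on opposite sides: it was at 8.23 with cholesterol and 6.26 with palmitate, 7.29 and 7.51 in the high and low glucose controls and 7.26 and 7.12 with LZ and OZ serum. The palmitate value of Igfbp5 lay under the median of all values, so its fold is less certain. Igfbp2 was at 9.74 with cholesterol and 8.34 with palmitate and 10.02 to 11.06 elsewhere. Igfbp3 was low with both lipids and lower with cholesterol, at 7.06 with cholesterol and 8.28 with palmitate, 9.91 and 9.70 in the high and low glucose controls and 9.14 and 8.76 with LZ and OZ serum. Pappa, the protease that frees IGF from its binding proteins, was at 9.98 with cholesterol and 8.72 with palmitate and 8.33 to 9.08, high with cholesterol alone. Irs1, the docking protein of the insulin and IGF receptors, was at 8.42 with cholesterol and 7.22 with palmitate and 8.71 to 9.10, and Igf1 itself at 8.46 with cholesterol and 7.61 with palmitate and 8.65 to 9.12, both low with palmitate. The receptors Insr and Igf1r differed by 0.07 and -0.07. Chst12, a chondroitin sulfotransferase outside this list, was another gene with the lipids on opposite sides, at 11.32 with cholesterol and 9.42 with palmitate and 10.31 to 10.51 elsewhere.

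Among 16 Wnt ligands and secreted modulators 3 reached 2-fold (of all genes, 1.92%), all higher with cholesterol, and the median was 0.19. It turned to -0.03 over all 27 annotated genes and was 0.44 among genes whose highest array reached the 75th percentile. Beside Sfrp2 the genes at 2-fold were Wnt4 and Rspo1. Wnt4, a ligand, was at 10.27 with cholesterol and 7.96 with palmitate and 9.22 to 9.72 elsewhere. Rspo1, which strengthens Wnt signals, was at 11.15 with cholesterol and 9.52 with palmitate and 11.39 to 11.71. In both, palmitate was low, and in Wnt4 cholesterol also lay above all 4 other arrays, by 1.47-fold. Axin2, a general Wnt target, differed by -0.21. Of 15 VEGF, FGF and PDGF growth factors 10 were higher with cholesterol with a median of 0.30, a sign that turned to -0.03 when genes below the signal filter were included, while the median was 0.08 with the filter on the mean of the lipid arrays. Vegfd was the extreme at one end and Pgf, placental growth factor, at the other. Pgf was at 6.54 with cholesterol and 8.31 with palmitate, 6.68 and 7.08 in the high and low glucose controls and 6.60 and 6.50 with LZ and OZ serum, high with palmitate alone. Pgf passed the signal filter only through its palmitate value. Of the 14 genes that passed on the mean of the 4 other arrays, which leaves out Pgf, 0 were 2-fold lower, with a median of 0.38. Vegfa, the main factor of blood vessel growth, differed by 0.08. Hgf, which activates muscle satellite cells, was at 7.46 with cholesterol and 6.37 with palmitate and 6.73 to 7.05, with palmitate below and cholesterol above all others, and Pdgfd was at 7.13 with cholesterol and 5.99 with palmitate and 8.22 to 9.39, low with both. The differences of Hgf and Pdgfd were 0.86 and 0.85 with an offset of 32 before log2. Fgf10 was high with cholesterol alone, at 10.28 against 9.38 with palmitate and 9.24 to 9.33 elsewhere.

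**Figure D4:**
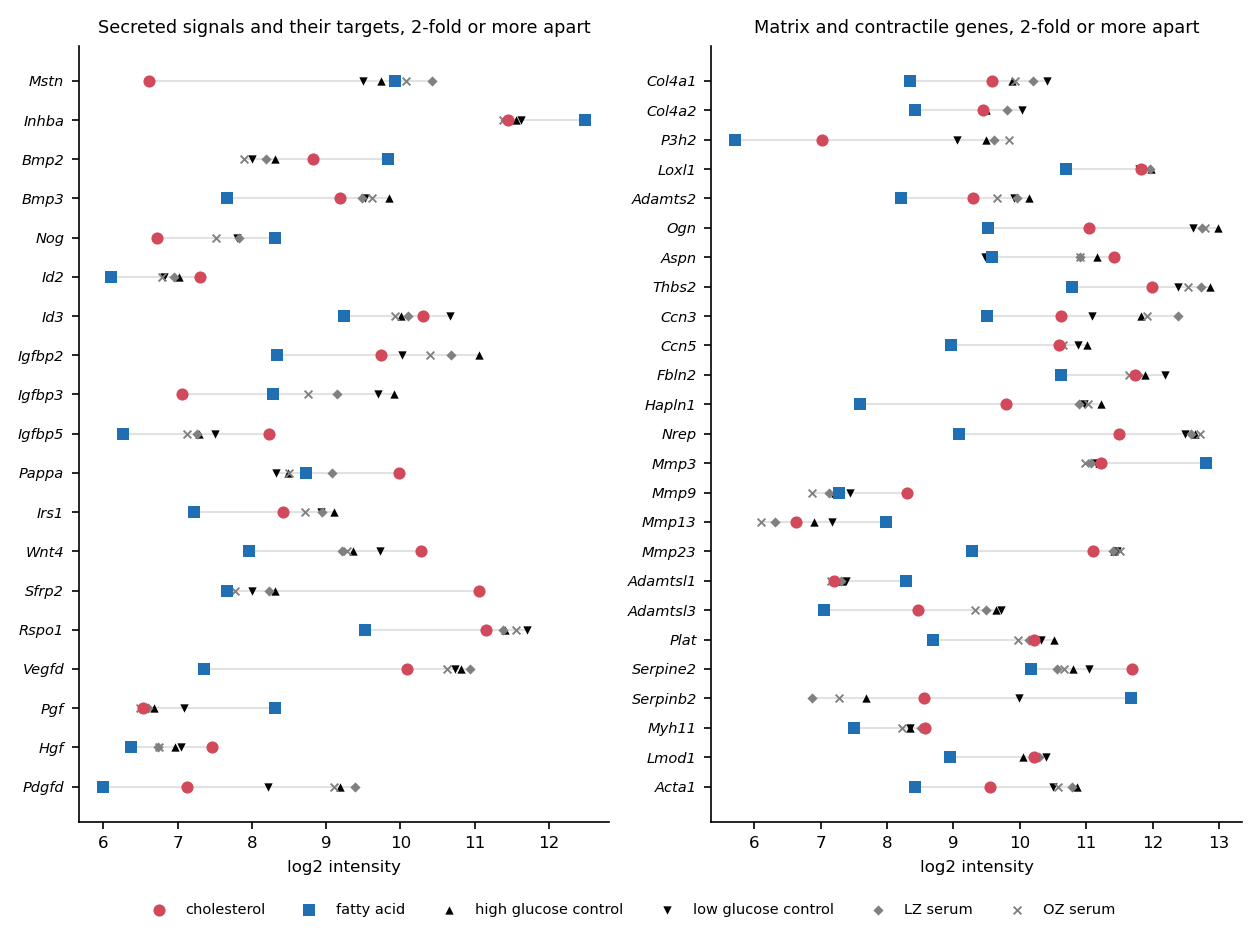
Log2 intensity on each of the 6 arrays for members of the growth factor lists (left) and of the matrix and contractile lists (right) that were 2-fold or more apart between the lipids; 1 symbol is 1 array. Cholesterol alone is low for Mstn and Nog and high for Sfrp2, while on the right the palmitate (titled fatty acid) symbol is the leftmost of its row in most genes, among them Col4a1, Loxl1, Ogn and Lmod1.

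Matrix genes were below the other arrays with both lipids, and palmitate was the lower. Of 18 collagen chains 15 were higher with cholesterol than with palmitate, with a median difference of 0.38. All 18 palmitate values and 15 of the 18 cholesterol values lay below all 4 other arrays, with medians of -0.67 and -0.43. Of all 11540 measured genes, 3835 palmitate and 3046 cholesterol values did so. Only the basement membrane chains Col4a1 and Col4a2 were 2-fold apart. Col4a1 was at 9.58 with cholesterol and 8.35 with palmitate, 9.88 and 10.42 in the high and low glucose controls and 10.21 and 9.92 with LZ and OZ serum, and Col4a2 differed by 1.02, or 0.97 after quantile normalization. The main fibrillar chains Col1a1, Col1a2 and Col3a1 differed by 0.48, 0.24 and 0.55. Enzymes that modify collagen were higher with cholesterol in 14 of 18 cases, by a median of 0.53. Loxl1, which crosslinks elastin, was at 11.83 with cholesterol and 10.69 with palmitate and 11.80 to 11.97 elsewhere, and Adamts2, which trims procollagen, at 9.29 with cholesterol and 8.21 with palmitate and 9.66 to 10.15. P3h2, a collagen prolyl hydroxylase, was low with both lipids, at 7.02 with cholesterol and 5.72 with palmitate against 9.06 to 9.84, and its difference was 0.93 with an offset of 32 before log2.

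Small proteoglycans and matricellular proteins held 8 genes at 2-fold of 25 measured, all higher with cholesterol (of all genes, 1.92%). The median was only 0.25 (0.38 with the filter on the mean of the lipid arrays). Ogn, a small proteoglycan, was at 11.04 with cholesterol and 9.52 with palmitate, 12.98 and 12.61 in the high and low glucose controls and 12.74 and 12.79 with LZ and OZ serum, and Hapln1, which links hyaluronan to proteoglycans, at 9.79 with cholesterol and 7.59 with palmitate, 11.23 and 10.97 in the high and low glucose controls and 10.90 and 11.03 with LZ and OZ serum. Both lipids were low in these genes. Nrep, a regulator of TGF-beta signals, was at 11.50 with cholesterol and 9.09 with palmitate against 12.49 to 12.71, and Thbs2, a thrombospondin, at 11.99 with cholesterol and 10.78 with palmitate against 12.39 to 12.86. Ccn5, of the CCN family, was at 10.60 with cholesterol and 8.97 with palmitate against 10.62 to 11.01, low with palmitate alone. Sparc, Lum, Dcn and Postn, matrix genes typical of fibroblasts, differed by -0.02, -0.04, -0.16 and 0.05.

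Matrix proteases went in opposite directions. Mmp3, stromelysin, was at 11.22 with cholesterol and 12.80 with palmitate. It was at 11.19 and 11.15 in the high and low glucose controls and 11.07 and 10.99 with LZ and OZ serum. Mmp13, a collagenase, was at 6.62 with cholesterol and 7.98 with palmitate and 6.11 to 7.18 elsewhere. Both were high with palmitate, but Mmp13 passed the signal filter only through its palmitate value. Mmp23 was at 11.10 with cholesterol and 9.29 with palmitate and 11.40 to 11.51, low with palmitate. Mmp14, a collagenase of the cell surface, and Mmp2, a gelatinase, were 0.93 and 0.60 higher with cholesterol. Mmp9, a gelatinase, was at 8.30 with cholesterol and 7.28 with palmitate and 6.87 to 7.44, high with cholesterol, and its difference of 1.02 was 0.98 after quantile normalization. In the plasminogen system, Plat, the tissue activator, was at 10.21 with cholesterol and 8.69 with palmitate and 9.98 to 10.52, and Serpine2, protease nexin, at 11.69 with cholesterol and 10.17 with palmitate and 10.55 to 11.04. Serpinb2, an inhibitor of the urokinase activator, was at 8.56 with cholesterol and 11.68 with palmitate, 7.68 and 9.99 in the high and low glucose controls and 6.87 and 7.28 with LZ and OZ serum. The controls were themselves -2.32 apart in Serpinb2, with low glucose the higher, yet palmitate was above both.

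Contractile and adhesion genes were low with palmitate. Of 14 smooth muscle genes 12 were higher with cholesterol and 3 reached 2-fold (of all genes, 1.92%), with a median of 0.50. Palmitate lay -0.87 from the other arrays in the median and cholesterol -0.11. Lmod1, which nucleates actin filaments, was at 10.21 with cholesterol and 8.95 with palmitate, 10.05 and 10.39 in the high and low glucose controls and 10.30 and 10.23 with LZ and OZ serum. Acta1, skeletal actin, was at 9.55 with cholesterol and 8.43 with palmitate and 10.50 to 10.86 elsewhere, and Myh11, smooth muscle myosin, at 8.57 with cholesterol and 7.50 with palmitate and 8.23 to 8.51, the latter 0.95 apart with an offset of 32 before log2. Tagln and Des, widely used markers of contractile cells, differed by 0.09 and 0.01. Pln, phospholamban, a brake on the calcium pump, was at 7.93 with cholesterol and 6.07 with palmitate and 8.92 to 9.87, low with both lipids. Of 13 integrin subunits 12 were higher with cholesterol, by a median of 0.59, or 0.37 over all 16 annotated subunits. Itga2 was the only one at 2-fold, high with cholesterol at 8.60 against 7.56 with palmitate and 6.86 to 7.26, and 0.99 apart after quantile normalization. Itgb5 and Itga11 differed by 0.95 and 0.91. Beside these lists, the summed intensity of 14 mesenchymal and fibroblast markers was 64732 with cholesterol, 55248 with palmitate and 68446 to 73300 on the other arrays. Fewer cells of a type and less RNA per cell cannot be told apart in bulk RNA. Among those markers Cd34 was 2-fold apart (1.22, or 0.94 with an offset of 32 before log2), and the receptor Pdgfrb differed by 0.84.

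Inflammatory genes did not follow 1 direction. Of 10 measured chemokines 9 were lower with cholesterol, with a median of -0.49, or -0.29 over all 18 annotated, and Cx3cl1 was the exception. Cxcl10, a T cell attractant induced by interferon, was at 8.33 with cholesterol and 10.42 with palmitate, 8.39 and 8.53 in the high and low glucose controls and 7.88 and 8.66 with LZ and OZ serum, high with palmitate alone. Cxcl1, a neutrophil attractant, was high with both lipids, at 10.55 with cholesterol and 11.85 with palmitate, 9.06 and 9.17 in the high and low glucose controls and 8.62 and 8.45 with LZ and OZ serum. Ccl2, the monocyte attractant, differed by -0.06. Of 20 cytokines, receptors and NF-kB regulators 12 were lower with cholesterol, and the median was -0.13. Tslp, a cytokine of epithelial and stromal cells, was high with both lipids and higher with palmitate, at 9.73 with cholesterol and 11.11 with palmitate, 7.97 and 7.82 in the high and low glucose controls and 7.62 and 7.72 with LZ and OZ serum. Il6 was at 8.18 with cholesterol and 6.95 with palmitate and 7.61 to 8.73 elsewhere, low with palmitate. Tlr2 and its co-receptor Cd14 were both higher with cholesterol, Cd14 at 10.13 with cholesterol and 8.41 with palmitate, 9.62 and 9.01 in the high and low glucose controls and 9.57 and 9.27 with LZ and OZ serum, whereas Tlr4 differed by 0.09. Cd68 and Cd14 are also macrophage markers. Of the 14 annotated macrophage and leukocyte markers 5 were measured. The summed intensity of all 14 was 2343 with cholesterol, 1371 with palmitate and 1480 to 1750 on the other arrays. Only Cd14 and Cd68 were 2-fold apart, and of all 14 markers 9 were higher and 5 lower with cholesterol. The median difference was 0.06 over the 5 measured, 0.05 over all 14 and 0.61 over the 4 that passed on the mean of the 4 other arrays. Ptprc, which encodes CD45 and defines leukocytes, was below the filter, at 5.42 with cholesterol, 5.53 with palmitate and 5.52 to 5.59 elsewhere, and Adgre1, a macrophage marker, at 6.05, 5.89 and 5.63 to 5.89.

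Complement and acute-phase genes were higher with cholesterol in 8 of 10 measured cases, by a median of 0.59, and in 10 of all 15 annotated, by 0.26. Apart from Cp, the gene at 2-fold was C1s, a protease of the classical pathway, at 10.30 with cholesterol and 8.66 with palmitate, 10.14 and 8.95 in the high and low glucose controls and 9.87 and 9.44 with LZ and OZ serum. Its palmitate value was close to that of the low glucose control, and neither lipid was counted as outside. C3, the central component, differed by 0.85 and C1r, the partner protease, by 0.58. Cd55, which protects cells from complement, went the other way, at 11.22 with cholesterol and 12.55 with palmitate and 11.75 to 12.05 elsewhere.

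Of 14 annotated genes of the cornified envelope, the protein shell of skin keratinocytes, 9 passed the signal filter, and Lce1e did so only through its palmitate value. The 9 were lower with cholesterol, 5 of them 2-fold (of all genes, 0.901%), with a median of -2.18. This median rests on the filter: over all 14 genes it was -0.16, with 11 lower and 3 higher, and it was -1.26 over the 8 genes that passed on the mean of the 4 other arrays alone, a filter added after the data were seen. Crct1 was at 7.28 with cholesterol and 10.22 with palmitate, 6.94 and 6.39 in the high and low glucose controls and 6.97 and 6.96 with LZ and OZ serum, and Lce1e at 6.60 with cholesterol and 9.59 with palmitate, 6.21 and 6.62 in the high and low glucose controls and 6.62 and 6.83 with LZ and OZ serum. Sprr1a, a small proline-rich protein, was at 7.33 with cholesterol and 9.68 with palmitate, 7.02 and 6.95 in the high and low glucose controls and 7.00 and 7.01 with LZ and OZ serum. In these 3 genes and in Kprp palmitate alone was high. Lce1m was built otherwise, at 6.21 with cholesterol, 8.39 with palmitate and 7.34 to 8.06 elsewhere, and as Lce1e and Lce1m are close copies, their probe sets may share signal. The remaining 4, Sprr1b, Sprr3, Tchh and loricrin (Loricrin), differed by -0.09, -0.15, -0.10 and -0.34. Keratinocyte markers were not high to the same degree: 3 of 11 were measured, and the summed intensity of the 11 was 1002 with cholesterol, 1153 with palmitate and 1013 to 1069 elsewhere. Krt14, the keratin of basal cells, was at 6.75 with cholesterol, 7.03 with palmitate and 6.54 to 6.68 elsewhere, and Cdh1, E-cadherin, at 6.39, 6.68 and 6.28 to 6.48. The part of other cell types in this difference was not tested.

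Several of the genes high with palmitate are known targets of AP-1, the dimer of Jun and Fos proteins, and its site was among the motifs searched. The site TGANTCA, which reads the same on both strands, was found in the 250 bases before the start in 15 of 87 genes that were 2-fold lower with cholesterol (17.2%), in 12 of 162 that were 2-fold higher (7.41%), in 4.48% of measured genes and in 6.36% of all promoters of the table. Among genes lower with cholesterol in which palmitate alone was outside the range it was found in 9 of 43 (20.9%). Where cholesterol alone was outside, the share was similar, at 4 of 17 (23.5%). Stretches of some of the genes lower with cholesterol follow with the site in capitals. Among them, Mmp13 passed the signal filter only through its palmitate value. Aox1, Car9 and Cd68, which were higher with cholesterol, hold the site as well and are not printed. Idi1, Msmo1 and Olr1, in which cholesterol alone was low, hold it too, so it was not limited to genes high with palmitate.
Serpinb2, chr13:24055817-24055853, plus strand: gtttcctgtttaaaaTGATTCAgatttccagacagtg
Mmp3, chr8:12925195-12925231, plus strand: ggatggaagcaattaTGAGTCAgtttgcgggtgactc
Mmp13, chr8:12782748-12782784, plus strand: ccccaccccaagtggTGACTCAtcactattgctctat
Sprr1a, chr2:180752751-180752787, minus strand: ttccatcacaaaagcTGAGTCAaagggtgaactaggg
Sprr1a, chr2:180752721-180752757, minus strand: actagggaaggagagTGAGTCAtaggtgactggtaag
Dhrs9, chr3:74555619-74555655, plus strand: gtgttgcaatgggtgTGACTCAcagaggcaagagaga
Cxcl10, chr14:15988955-15988991, plus strand: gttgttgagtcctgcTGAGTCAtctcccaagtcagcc
Idi1, chr17:66547605-66547641, minus strand: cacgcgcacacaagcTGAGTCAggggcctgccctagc
Msmo1, chr16:29746958-29746994, plus strand: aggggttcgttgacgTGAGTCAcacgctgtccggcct
Olr1, chr4:164634556-164634592, minus strand: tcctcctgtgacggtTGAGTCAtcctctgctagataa
Sprr1a carries the site 2 times. Other motifs were searched in the same windows. The NF-kB site (GGGANNNNCC) was found in 27.6% of genes 2-fold lower with cholesterol, 30.9% of those higher and 21.8% of measured genes. The antioxidant element (TGACNNNGC) was found in 18.4% of genes lower, 7.41% of those higher and 12.6% of measured genes. NF-Y boxes (CCAAT) were found in 10 of 13 sterol synthesis enzymes (76.9%) beside 35.7% of measured genes, and the sterol regulatory element as TCACNCCAC in 0 of 13 beside 0.994%, which says only that these letters are not in this window.

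Of 17 AP-1 and immediate early factors 13 were lower with cholesterol, with a median of -0.22 (-0.36 among genes whose highest array reached the 75th percentile), and both lipids lay above the other arrays, by 0.58 with palmitate and 0.35 with cholesterol. Fosl1, an AP-1 subunit, was at 10.40 with cholesterol and 11.11 with palmitate, 8.78 and 9.61 in the high and low glucose controls and 8.77 and 9.03 with LZ and OZ serum, and Jun differed by -0.23. Myc was the only one at 2-fold, at 9.44 with cholesterol and 10.69 with palmitate and 9.67 to 10.10 elsewhere. Among 18 genes of ERK feedback the median was 0.03, a sign that turned to -0.01 after quantile normalization, and the phosphatase Dusp6 was at -1.03, just short of 2-fold when 32 was added before log2. Dusp5 was high with both lipids, at 9.64 with cholesterol and 10.65 with palmitate against 8.25 to 8.59.

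Energy metabolism separated the lipids in a few genes. Carbonic anhydrases were higher with cholesterol in 6 of 7 measured cases, with a median of 0.86 that was 0.09 over all 13 annotated, led by Car3 and by Car9, a membrane enzyme induced by hypoxia, at 10.75 with cholesterol and 8.95 with palmitate, 12.13 and 11.26 in the high and low glucose controls and 11.83 and 11.76 with LZ and OZ serum. Of 21 glycolysis and hypoxia genes 16 were higher with cholesterol, with a median of 0.33. Ndrg1, a hypoxia and stress gene, was high with both lipids, at 9.55 with cholesterol and 8.34 with palmitate against 7.24 to 7.45, and the glycolytic genes Pfkp, Hk2 and Eno2 differed by 0.80, 0.63 and 0.91. Genes that handle fatty acids were close. The median over 21 genes of uptake, activation and lipid droplets was 0.07, and over 16 genes of oxidation -0.05. Fabp3, the muscle fatty acid binding protein, was at 9.23 with cholesterol and 8.14 with palmitate and 8.44 to 8.78 elsewhere. Acot2, a mitochondrial thioesterase, was at 8.91 with cholesterol and 10.22 with palmitate and 9.41 to 9.66, and Ucp2, an uncoupling protein, at 9.55 with cholesterol and 8.25 with palmitate and 9.63 to 10.61, low with palmitate. Plin2, which coats lipid droplets, was above the other arrays with both lipids, at 10.25 with cholesterol and 10.49 with palmitate against 9.62 to 9.73, and Cpt1a, the entry to mitochondrial oxidation, was at 9.65 with cholesterol and 9.90 with palmitate against 8.88 to 9.64.

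Lysosomal genes were higher with cholesterol in 17 of 18 cases, by a median of 0.44. Cholesterol lay 0.19 above and palmitate -0.23 from the median of the other arrays. Hexa, a hexosaminidase, was at 11.49 with cholesterol and 10.46 with palmitate and 11.15 to 11.46 elsewhere, and its difference of 1.02 was just under 2-fold after quantile normalization. Neu1 and Gusb, which remove sialic and glucuronic acid, differed by 0.88 and 0.86, and the collagen-cleaving cathepsin Ctsk was the exception at -0.71. Of 21 mitosis genes 18 were higher with cholesterol, but by a median of only 0.13, and both lipids and the controls differed among themselves in this list, with high minus low glucose at -0.42. Medians were -0.01 for 21 DNA replication genes, 0.13 for 22 respiratory chain subunits, -0.14 for 21 proteasome subunits and 0.11 for 10 housekeeping genes. In these 4 lists 0 genes reached 2-fold.

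**Figure D5:**
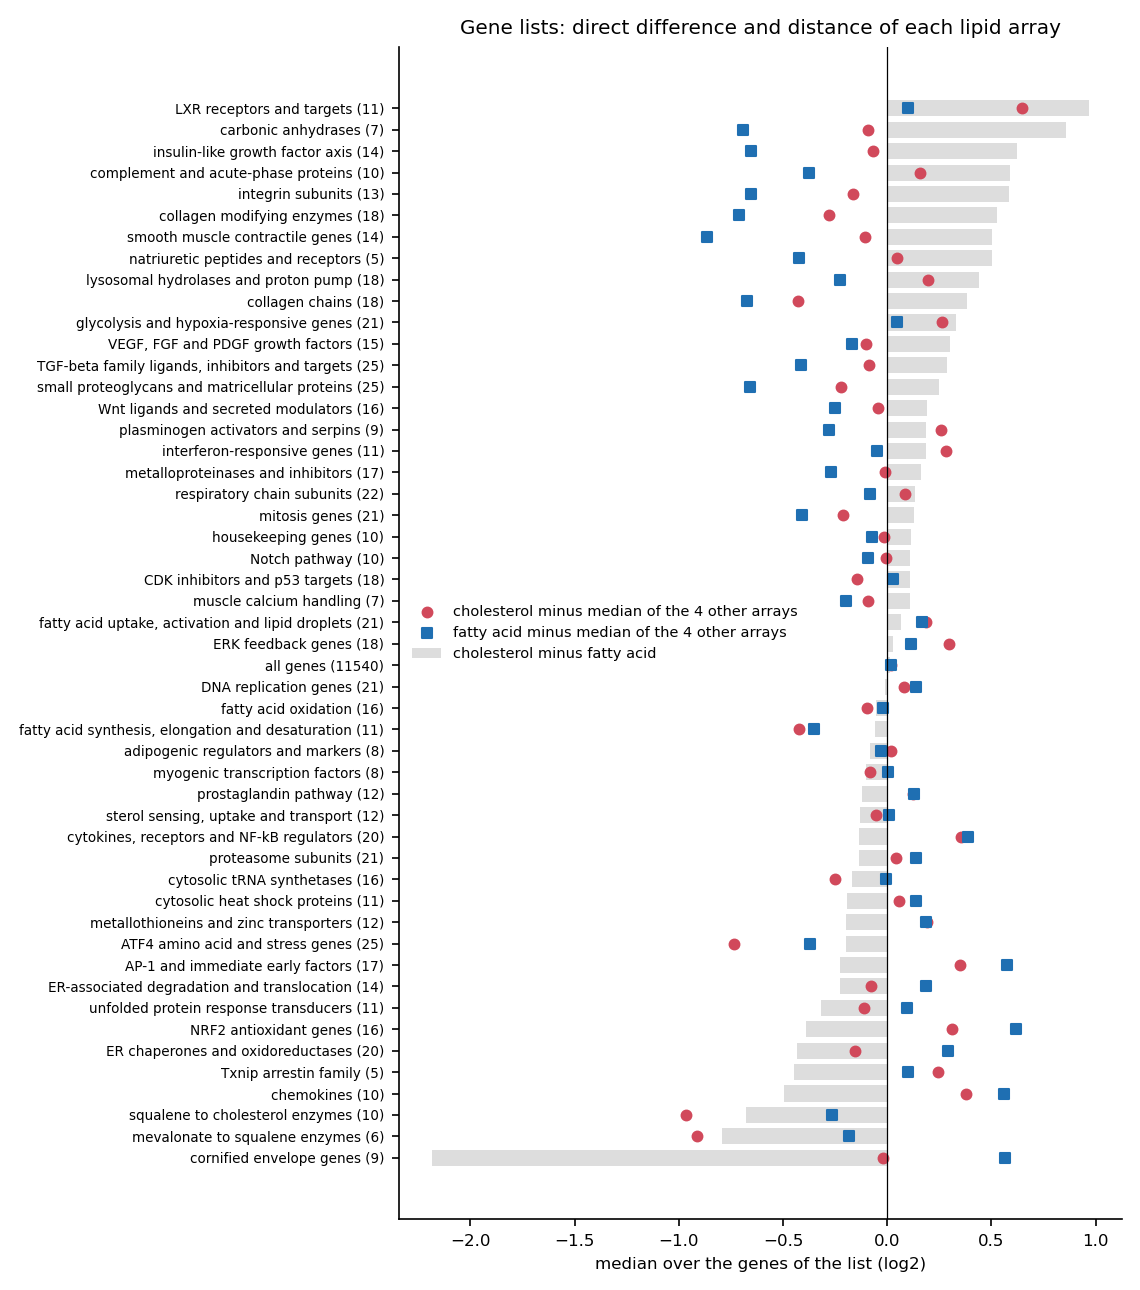
Median over the measured genes of each list with at least 5 such genes (number in brackets), in log2 units: grey bars give cholesterol minus palmitate (titled fatty acid), circles and squares the distance of each lipid array from the median of the 4 other arrays. The 2 sterol synthesis lists, the LXR list and the ATF4 list have the circle far from 0. The smooth muscle, integrin, IGF, collagen and carbonic anhydrase lists, among others, have the square far from 0. All genes together lie near 0.

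The controls show which of these genes also vary without a lipid. Of the 41 genes 2-fold apart between the glucose controls, 16 were also 2-fold apart between the lipids (of all measured genes, 2.82%). In 11 of the 16 cholesterol lay on the side of high glucose and in 5 on the side of low glucose. Aspn, asporin, a small proteoglycan, was at 11.42 with cholesterol and 9.59 with palmitate, 11.16 and 9.48 in the high and low glucose controls and 10.90 and 10.91 with LZ and OZ serum: palmitate lay nearest the low glucose control, and cholesterol nearest the high glucose control. Tgfbi, a matrix protein induced by TGF-beta, was at 11.54 with cholesterol and 9.29 with palmitate, 10.34 and 11.48 in the high and low glucose controls and 10.56 and 10.77 with LZ and OZ serum, and here cholesterol lay nearest the low glucose control. Cx3cl1, C1s, Egln3, Igfbp2, Il6, Lbp, Kprp, Serpinb2, Dhrs9, Acod1 and Gpr15lg belong to the 16 as well. Egln3, an oxygen-sensing hydroxylase, was at 10.86 with cholesterol and 9.37 with palmitate, 10.18 and 8.87 in the high and low glucose controls and 9.77 and 9.68 with LZ and OZ serum. Across the 11540 genes the direct difference had a correlation of 0.0036 with high minus low glucose and of -0.23 with OZ minus LZ serum. The differences compared have no array in common, each comes from single arrays, and the values only describe these arrays. Whether the lipid cultures differed in glucose is not stated, so its part in these 16 genes was not tested.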

How the data were processed

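RNA of 6 cultures, 1 per group, was read on Rat Gene 2.0 ST arrays of Affymetrix, per the labels' protocols. The authors deposited linear intensity values for 36685 probe sets; how they were summarised and normalized is not given in the sources used here. They were turned to log2 with no offset. GEO's platform annotation named the probe sets (1 gene for 18511, several for 575, none for 17599), and 18394 Entrez identifiers were found in a RefSeq table of GRCr8, changing 0 symbols. A gene with several probe sets took the one with the highest mean. Genes whose mean over 6 arrays reached the median of all values were kept. Named genes were the 20 largest differences in each direction, the 6 largest per class and direction, and members of 57 gene lists, passing over microRNA genes and provisional symbols. The groups, comparison and lists were chosen with earlier results of these data known. With 1 array per group no test was run; the number of arrays limits the precision. The counting was tested on simulated data. Alternatives were scalings, filters, an offset, fold thresholds and ranges. Analyses used Python 3.11.15, numpy 2.4.6, pandas 2.3.3, matplotlib 3.10.9, R 4.3.3 and limma 3.58.1 (normalization only).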

Additional observations from a re-analysis of the deposited data

How the results depend on the processing

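The counts of 221 genes higher and 104 lower with cholesterol ranged from 168 to 238 and from 83 to 132 over other scalings, filters, the offset of 32 and probe set rules. They were 857 and 497 at a 1.5-fold threshold and 37 and 26 at a 3-fold threshold. The classes followed how far outside the range an array had to lie. At any distance cholesterol alone was outside in 28 genes, palmitate alone in 82, both in 215 and neither in 0. At 2-fold palmitate alone was outside in 111, both in 12 and neither in 168. Of the distances tried, only 1.5-fold had palmitate alone outside in most of the 325 genes. With the serum arrays alone as the range both were outside in 45 and neither in 27. Leaving out each of the other 4 arrays in turn gave 27 to 38 genes with both outside and 42 to 60 with neither; the values of 38 and 42 came without the low glucose control. Of 123 named genes 0 reversed and 19 fell under 2-fold in at least 1 setting, 18 of them with the offset. Of 56 list medians 7 changed sign in at least 1 setting. With no signal filter the VEGF, FGF and PDGF list turned to -0.0342, the Wnt list to -0.0315 and the myogenic markers from 0.0589 to -0.0671. With the filter on the highest array, the myogenic transcription factors turned from -0.1001 to 0.3505, the interferon-responsive genes from 0.1865 to -0.0192, the prostaglandin pathway from -0.1200 to 0.0516 and the ERK feedback genes from 0.0252 to -0.0750. The ERK list also turned under quantile normalization, to -0.0074; cyclic loess and centring turned 0. Of the 27 lists with a median of at least 0.2 in size, 10 moved by over 1.5 times in some setting and 1 of these turned; of the 29 smaller ones, 22 moved so and 6 turned. The filter on the mean of the 4 other arrays, added after the data were seen, turned 0 of 55 list medians and left both counts within the ranges above. No paired analysis was possible because each group holds 1 array. The cause of these shifts was not tested.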

Other observations

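Some genes described by no list were far apart between the lipids. Rgs16, a regulator of G protein signalling, was at log2 9.71 with cholesterol and 11.75 with palmitate, with 10.28 to 11.28 on the other arrays, so neither lipid alone made up the difference of -2.04. Stmn2, which destabilises microtubules, was at 7.40 and 9.17 with 7.82 to 8.29 elsewhere, high with palmitate. Nabp1, which binds single-stranded DNA, was at 8.74 and 10.68 with 8.31 to 8.55 elsewhere. Rasgrp3, an activator of Ras, was high with both lipids, at 11.76 and 12.83 with 9.83 to 10.94 elsewhere. Xdh, xanthine dehydrogenase, was at 10.56 and 9.16 with 9.26 to 10.09 elsewhere, and Acod1, which makes itaconate, was at 7.36 and 8.79 with 7.08 to 8.61.

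Probe sets without a gene name in the annotation were 2-fold apart more often than named genes, between the lipids and also between the glucose controls. The units differ, as a named gene took its probe set with the highest mean. Of 6207 above the signal filter, 137 were at least 2-fold higher and 79 lower with cholesterol than with palmitate, or 3.48%, against 2.82% of named genes. Between the glucose controls 102 of these probe sets (1.64%) were 2-fold apart, against 41 of 11540 named genes. The higher share was therefore not particular to the lipids.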
